A study of Zea mays with 15 samples.

Results

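ARF18 (GRMZM2G035405) and ARF16 (GRMZM2G028980) are 2 maize AUXIN RESPONSE FACTORS that the study places beside each other in its tree of the family, within clade A. The comparison took every peak of both lists, 7520 of ARF18 and 42091 of ARF16, out of 386300 peaks in the 14 ARF lists of the series. An ARF18 peak and an ARF16 peak were taken as shared when their summits lay at most 100 bp apart. The question was whether the short ARF18 list holds the strongest ARF16 peaks, or a subset of ARF16 peaks that differs in other ways.

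Both lists came from DAP-seq, in which adapter-ligated genomic DNA is captured by a tagged transcription factor on beads and the retained fragments are sequenced. The DNA was naked genomic DNA from young ears of the inbred line B73, so no chromatin limited the binding. Each protein was full length, fused to GST and made in E. coli. The deposited lists come from 1 library for each of 14 ARFs, and a GST-HALO library, with protein made in a wheat germ system, served as the background for calling peaks. No list of the control was used here. The study also made libraries to check reproducibility and other tissues, which were not analysed here. With 1 list for each protein, no test between ARF18 and ARF16 was possible, and every difference below is a difference between these 2 lists. Brackets hold 95% intervals (Wilson for shares), which cover counting error over peaks only and say nothing of a second library. The depth of these 2 libraries is not given in the sources used here, and the part that sequencing depth plays in the shorter ARF18 list was not tested.

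ARFs bind DNA through a B3-type domain and act downstream of auxin, the hormone whose perception removes the Aux/IAA repressors from ARFs. The family is divided into clades. Activation of target genes is the role usually given to clade A, and repression that given to clade B. By the study's classification, clade A also holds ARF4, ARF27, ARF29, ARF34 and ARF35 among the lists used here. The remaining 7 lists (ARF39, ARF36, ARF25, ARF14, ARF13, ARF10 and ARF7) belong to clade B.

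Nearly the whole ARF18 list lay inside the ARF16 list, whereas most of the ARF16 list lay outside the ARF18 list. Of the 7520 ARF18 peaks, 7176 (95.4%, 94.9 to 95.9%) had an ARF16 partner and 344 (4.57%) had none. This share rests on the length of the ARF16 list: against only the 7520 strongest ARF16 peaks, 60.7% of ARF18 peaks (59.6 to 61.8%) had a partner. Of the 42091 ARF16 peaks, 8327 (19.8%, 19.4 to 20.2%) had an ARF18 partner and 33764 had none. When the ARF18 list was moved by 10 kb along the chromosomes, 40 of its peaks (0.532%, 0.391 to 0.723%) met an ARF16 peak. The shared counts differ because ARF16 peaks stood closer to each other. Within 100 bp, 1428 of the shared ARF18 peaks (19.9%) reached 2 ARF16 summits and 29 reached 3 or more. Only 4.01% of the shared ARF16 peaks (3.61 to 4.45%) reached 2 or more ARF18 summits.

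Where the lists met, they mostly met at the same base. In 4314 of the 7176 shared ARF18 peaks the nearest ARF16 summit was the identical position, and in 484 (6.74%) it was 1 to 9 bp away. The next most frequent distance was 11 bp, with 169 peaks (2.36%, 2.03 to 2.73%), and the distances of 10 to 15 bp together held 610 (8.50%). The remaining shared peaks were 16 to 50 bp apart (1490 peaks) or 51 to 100 bp apart (278 peaks). Among shared peaks with different summits, ARF16 lay at the lower coordinate in 51.1% (49.3 to 52.9%), so no side was preferred within the interval. The share with an identical summit was 66.9% (63.5 to 70.2%) in the strongest decile of ARF18 peaks and 56.9% (53.1 to 60.7%) in the weakest decile. The most frequent distance differed between pairs of lists, and its cause was not tested. It was 0 bp for ARF18 with ARF16 but most often 1 bp for ARF18 with ARF34 (60.7% of 7382), 3 bp for ARF35 with ARF16 (50.5% of 8006) and 4 bp for ARF29 with ARF16 (60.6% of 11420).

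Shared peaks were among the strong peaks of ARF16. Signal here is the read depth that GEM assigned to a peak. It is not scaled between libraries, so strength was compared by rank within a list, from 0 for the weakest to 100 for the strongest peak. ARF16 peaks with an ARF18 partner had a median rank of 86.0 and a median signal of 142.7 reads. ARF16 peaks without one had a median rank of 42.3 and a median signal of 49.9 reads. The middle 50% of shared peaks spanned ranks 68.2 to 94.5, and that of the other peaks spanned 20.9 to 64.6, so the bulk of the distributions did not overlap while their tails did.

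The share of ARF16 peaks that ARF18 also bound climbed steeply at the strong end, over deciles of ARF16 signal counted from the weakest. It was 4.92% (4.30 to 5.61%) in the weakest decile of ARF16 peaks, whose signals were 19.0 to 31.3 reads. It stayed below 11% in each of the 6 weakest deciles and reached 15.1% (14.1 to 16.2%) in the seventh. It was 24.3% (23.1 to 25.7%) in the eighth decile and 42.2% (40.7 to 43.7%) in the ninth. In the strongest decile, with signals from 176.8 to 2355.4 reads, 3295 of 4210 peaks (78.3%, 77.0 to 79.5%) were shared. All of the strongest 100 ARF16 peaks had an ARF18 partner, as did 495 of the strongest 500 (99.0%, 97.7 to 99.6%), 974 of the strongest 1000 (97.4%, 96.2 to 98.2%) and 1824 of the strongest 2000 (91.2%, 89.9 to 92.4%). The first ARF16 peak without an ARF18 partner stood at place 179 in the order of signal.

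**Figure D1:**
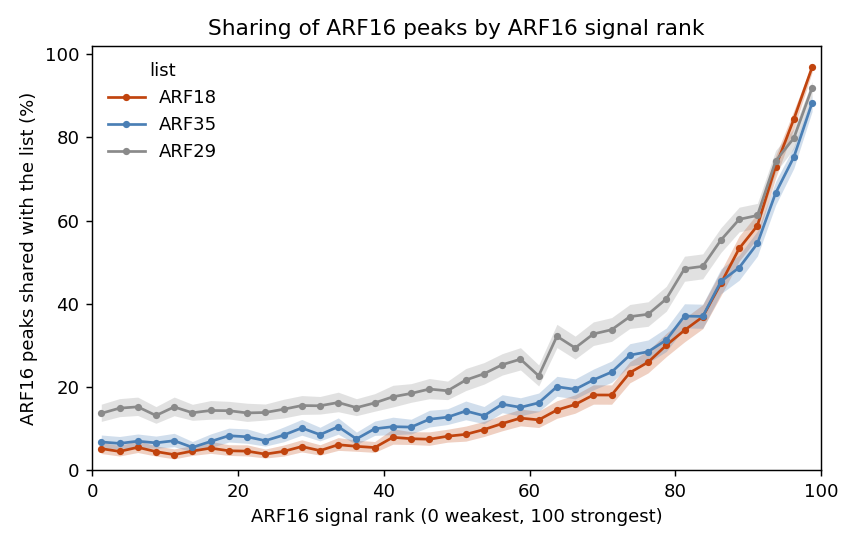
Share of ARF16 peaks that had a partner in the ARF18, ARF35 or ARF29 list (%), against ARF16 signal rank in 40 bins, with 95% Wilson intervals as bands. The ARF18 curve starts lowest at the weak end and ends highest at the strong end.

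The ARF18 list was nevertheless not a simple cut through the ARF16 list by strength. Had ARF18 taken ARF16 peaks strictly in order of signal, the strongest 8327 ARF16 peaks would all have been shared. Of these, 5049 (60.6%, 59.6 to 61.7%) were. The rest of the shared peaks came from lower in the order, and 1160 shared peaks (13.9%, 13.2 to 14.7%) had a rank below 50. Some of these weak shared peaks stood beside another ARF16 peak, whose strength was not compared. Among shared ARF16 peaks of rank below 50, 45.2% (42.3 to 48.0%) overlapped another ARF16 peak, against 10.9% (10.5 to 11.3%) of the unshared peaks in the same range. Of the 1160, 902 (77.8%, 75.3 to 80.1%) were themselves the ARF16 peak nearest to their ARF18 partner. Counting only the strongest of overlapping ARF16 peaks raised the median rank of shared peaks to 87.7 and the share of the strongest peaks that were shared to 62.2%. Over the whole list, 36.1% of shared ARF16 peaks (35.1 to 37.2%) and 11.8% of unshared ones (11.5 to 12.2%) overlapped another ARF16 peak. The excess was present in each decile of signal. Part of this excess, and of that below rank 50, is built in by the matching rule. An ARF18 summit marks every ARF16 peak with a summit within 100 bp as shared, and ARF16 peaks marked together overlap each other. A shared peak that is not the nearest to its ARF18 partner therefore always overlaps another. Of the 8327 shared peaks, 7080 (85.0%) were the nearest. Overlap among these nearest peaks alone was not counted.

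The 5 shared sites with the highest mean rank in both lists were also bound by every other clade A ARF. At chr3:9047719-9047919 the ARF18 signal was 613 reads and the ARF16 signal 1402 reads, with the same summit base. At chr2:198248535-198248735 the signals were 672.8 and 1199 reads, with summits 11 bp apart. At chr3:203000612-203000812 they were 715 and 1143 reads. These positions, like all below, are in B73 RefGen version 3 and give the ARF18 peak, or the ARF16 peak where ARF18 has none. The other sites were chr1:103320323-103320523 (543.9 and 1721 reads) and chr6:167839299-167839499 (539 and 2355.4 reads, the strongest ARF16 peak of all). All 5 sites held a peak of each of the 5 other clade A lists. So did 2311 of the 3295 shared peaks of the strongest ARF16 decile (70.1%, 68.6 to 71.7%), so this is common among strong shared peaks. The 5 sites held peaks of 1, 2 or, at the first site, 5 of the 7 clade B lists.

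Signals at shared peaks rose together, with wide spread. Spearman's rho between the ARF18 signal and that of the nearest ARF16 peak was 0.61 over 7176 shared peaks, a description across peaks that share 1 library on each side. Against the other lists, rho of the ARF18 signal was 0.61 with ARF34 (7382 peaks), 0.58 with ARF27 (6569) and with ARF35 (4565), 0.51 with ARF29 (5155) and 0.42 with ARF4 (5522). It lay between 0.09 and 0.18 with the 7 clade B lists. From the weakest to the strongest decile of ARF18 peaks, the median rank of the ARF16 partner climbed from 58.6 to 98.4. The range of partners narrowed at the same time. For the weakest ARF18 decile, 10% of partners ranked below 11 and 10% above 86.5 in ARF16, whereas for the strongest decile the corresponding ranks were 89.3 and 99.8.

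The ratio of the signals varied even among the strongest peaks, where almost no ARF18 peak was missing. At the strongest 100 ARF16 peaks, the median was 1113.5 reads in ARF16 and 269.8 reads in ARF18. Over the 974 shared peaks of the strongest 1000, the ARF18 signal was a median of 0.216 times the ARF16 signal, with 10% of peaks below 0.122 and 10% above 0.409. The level of this ratio depends on the depth of both libraries, but its spread from peak to peak does not come from a common scale. Below this range the ratio cannot be read, since ARF18 signals under about 22 reads do not occur in the list: the median ARF18 signal at shared peaks was 79.4 reads in the strongest ARF16 decile and 37.3 reads in the weakest.

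**Figure D2:**
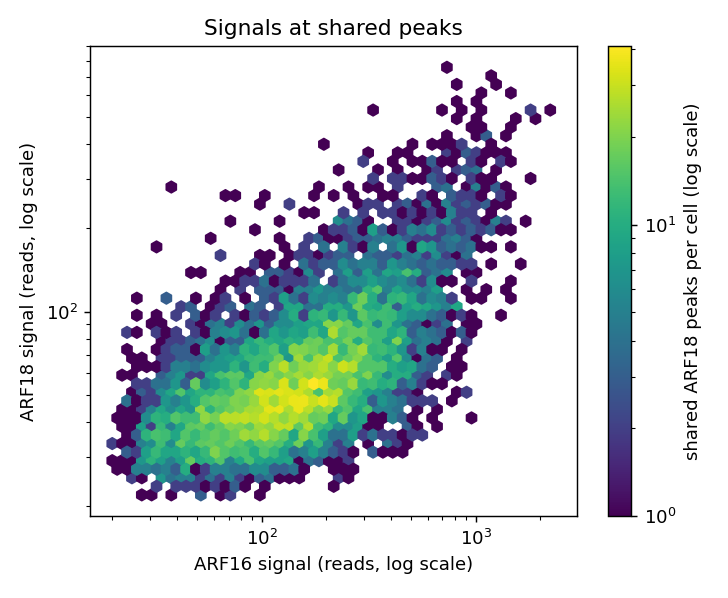
ARF18 signal against ARF16 signal (reads, both axes logarithmic) at the 7176 shared ARF18 peaks, each with its nearest ARF16 peak. Colour gives the number of peaks per cell. The cloud rises (Spearman's rho 0.61) and is cut off below at the smallest ARF18 signals (21.9 reads).

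Sites of ARF16 that ARF18 also bound were bound by more of the other 12 ARFs. Shared ARF16 peaks were found in a mean of 5.89 other lists and unshared ones in 3.03, a difference of 2.87 lists (2.79 to 2.94). The medians were 5 and 2. The difference lay mainly in clade A. Shared peaks were in 4.03 and unshared peaks in 2.08 of the 5 other clade A lists, and in 1.87 against 0.944 of the 7 clade B lists. All 5 other clade A lists had a peak at 49.9% of shared (48.8 to 51%) and 5.46% of unshared ARF16 peaks (5.23 to 5.71%). All 12 other lists had one at 662 shared peaks (7.95%) and 229 unshared peaks (0.678%). Peaks of ARF16 and ARF18 found in no other list were rare, with 8 among the 8327 shared ARF16 peaks (0.0961%, 0.0487 to 0.189%).

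Stronger peaks are found in more lists, so the comparison was repeated among ARF16 peaks of like ARF16 signal. Within each decile of ARF16 signal, shared peaks were in more other lists than unshared peaks, by 1.19 to 2.19 lists, and the interval lay above 0 in 10 of 10 deciles. Weighted over the deciles, the difference was 1.50 lists (1.40 to 1.61), and over 100 narrower strata it was 1.25 lists (1.13 to 1.38). In these narrow strata the clade A lists gave 0.946 (0.904 to 0.988) of the difference and the clade B lists 0.308 (0.197 to 0.418). The difference at like ARF16 signal was thus smaller than the 2.87 lists without strata but did not vanish. The strata hold alike only the signal of 1 ARF16 library. The part of binding strength that this signal misses was not tested.

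The number of other clade A lists separated shared from unshared peaks at like ARF16 signal. In the ninth decile of ARF16 peaks, with signals from 112 to 176.7 reads, ARF18 shared 15.3% (11.4 to 20.2%) of the peaks with 1 other clade A list and 22.8% (20.0 to 25.8%) of those with 2. It shared 31.8% (28.9 to 34.9%) with 3 lists, 42.8% (39.8 to 45.9%) with 4 and 67.1% (64.5 to 69.7%) with all 5. The median ARF16 signal of these classes moved only from 131 to 140 reads. In the strongest decile the share was 42.1% (30.2 to 55.0%) with 1 list and 90.2% (89.0 to 91.3%) with all 5, but the median signal there also moved from 208 to 304.4 reads.

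**Figure D3:**
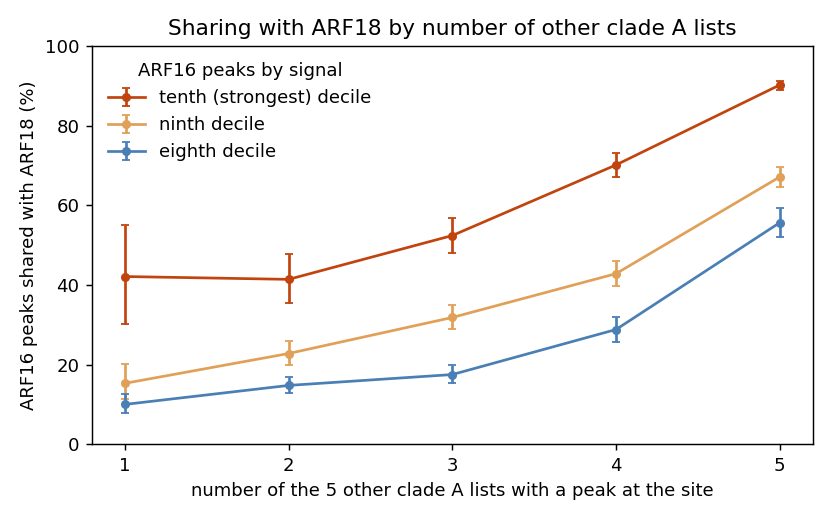
Share of ARF16 peaks that ARF18 also bound (%), against the number of the 5 other clade A lists with a peak within 100 bp, for the 3 strongest deciles of ARF16 signal, with 95% Wilson intervals. Classes of fewer than 20 peaks are not drawn. The share climbs to 90.2%, 67.1% and 55.6% where all 5 lists had a peak.

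The number of clade B lists had no steady relation to sharing once the clade A lists were counted. Where all 5 other clade A lists had a peak, ARF18 shared 66.4% (64.5 to 68.3%) of the ARF16 peaks with no clade B list, 70.0% (68.2 to 71.6%) of those with 1 to 6, and 74.3% (71.3 to 77.1%) of those with all 7. The median ARF16 signal of these classes moved from 124.8 to 165.1 and 200 reads. With 4 other clade A lists the shares were 36.1% (34.3 to 37.8%), 29.9% (27.9 to 32.0%) and 41.5% (36.8 to 46.4%), and with 3 they were 18.7% (17.5 to 19.8%), 11.4% (10.1 to 12.9%) and 23.0% (19.4 to 27.1%). With 2 they were 9.12%, 4.99% and 9.48%, and with 1 they were 3.30%, 0.864% and 2.05%. The lowest share thus lay in the middle class with 1, 2, 3 or 4 clade A lists. With all 5, over the whole ARF16 list, it lay in the class with no clade B list. At like ARF16 signal, in the ninth decile, the shares with all 5 were 68.1% (64.0 to 72.0%), 64.8% (60.7 to 68.6%) and 71.9% (64.6 to 78.1%), with overlapping intervals. With 3 in that decile they were 35.1% (31.3 to 39.1%), 20.7% (16.4 to 25.8%) and 47.0% (36.6 to 57.6%), and the interval of the middle class lay apart from the others. The count over all 12 lists was not a steady scale either. ARF18 shared 47.0% of ARF16 peaks with 5 other lists (45.4 to 48.6%), 26.4% with 9 (24.2 to 28.7%) and 74.3% with 12.

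Among single lists, ARF35 and ARF29 differed most between shared and unshared peaks of the strongest ARF16 decile. The ARF16 signals of these 2 groups were not alike, with medians of 293.4 and 214 reads, so the gaps in this decile are not at like strength. ARF35 had a peak at 79.5% (78.0 to 80.8%) of shared and 41.4% (38.3 to 44.6%) of unshared peaks, and ARF29 at 84.6% (83.3 to 85.8%) and 48.9% (45.6 to 52.1%). ARF27 and ARF4, whose lists are longer, differed by 9.45 and 10.7 percentage points. ARF34, the longest list, had a peak at 99.9% and 99.7% and so could not separate them. The clade B lists differed by 5.18 (ARF7) to 14.4 (ARF25) points. In the ninth decile, ARF18 shared 67.8% (65.2 to 70.2%) of ARF16 peaks with both ARF29 and ARF35 and 20.0% (18.1 to 22.1%) of those with neither, at median ARF16 signals of 140 and 132 reads. ARF29 alone gave 41.3% (38.1 to 44.6%) and ARF35 alone 43.3% (38.6 to 48.0%). After ARF18, ARF35 and ARF29 have the shortest clade A lists, and the part that list length plays in these shares was not tested.

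**Figure D4:**
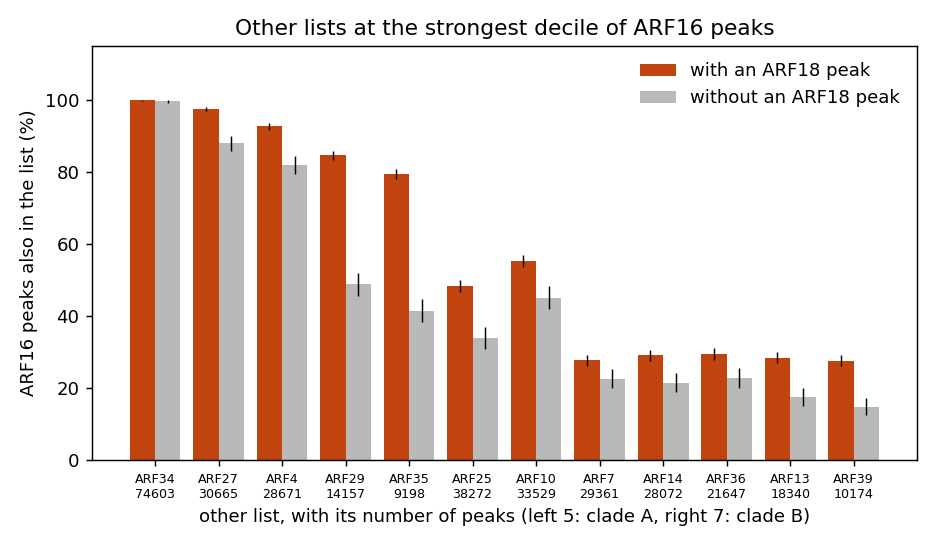
Share of the strongest decile of ARF16 peaks that were also in each of the 12 other lists (%), for the 3295 peaks with and the 915 peaks without an ARF18 partner, with 95% Wilson intervals. Lists are ordered by clade and length. The widest gaps are at ARF35 (79.5 against 41.4%) and ARF29 (84.6 against 48.9%). The median ARF16 signal was 293.4 reads with and 214 reads without an ARF18 partner.

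A strength measured in another library also told shared from unshared peaks. ARF34 had a peak at nearly all of them, so its signal rank can be set beside that of ARF16. In the strongest ARF16 decile, the median ARF34 rank was 97.1 at shared and 94.6 at unshared peaks, whose median ARF16 signals also differed (293.4 and 214 reads). In the eighth ARF16 decile, ARF18 shared 43.8% (37.9 to 49.9%) of peaks with an ARF34 rank of 95 or more and 21.2% (17.7 to 25.1%) of those with an ARF34 rank below 60. The median ARF16 signals of these classes were 97.9 and 93.0 reads. In the strongest ARF16 decile the share was 84.0% (82.5 to 85.3%) at the highest ARF34 ranks and 63.8% (59.0 to 68.3%) at ranks of 80 to 90, but the ARF16 signals were not alike, with medians of 316.8 and 212 reads. Below these ranks the share was not lower, at 72.6% of 113 peaks with an ARF34 rank of 60 to 80 (63.7 to 79.9%) and 74.4% of 39 peaks below 60 (58.9 to 85.4%).

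The strong ARF16 peaks that ARF18 lacked were still in other clade A lists, though less often in those of ARF29 and ARF35. Of the 26 such peaks among the strongest 1000, 26 were in the ARF34 list, 26 in ARF27, 25 in ARF4, 18 in ARF29 and 13 in ARF35. Of all the strongest 1000, ARF29 had 92.5% and ARF35 89.0%. In the strongest decile, ARF34 was at 99.9% of shared and 99.7% of unshared peaks. ARF27 was at 97.5% and 88.1%, and ARF4 at 92.7% and 82.0%. In the same decile ARF29 was at 84.6% and 48.9%, and ARF35 at 79.5% and 41.4%. Among the 26 peaks, the counts of ARF34, ARF27 and ARF4 were near or above these shares of the decile. Those of ARF29 and ARF35 lay between the shared and the unshared share. The decile is a wider set than the strongest 1000, for which the shares of ARF34, ARF27 and ARF4 are not given here. The 26 peaks were in a median of 5 other lists, against 7 for the shared peaks of the strongest 1000. None of the 26 had an ARF18 summit within 200 bp, and 2 had one within 1000 bp. In the whole strongest decile, 8 of the 915 unshared peaks (0.874%, 0.444 to 1.72%) had an ARF18 summit just outside the limit, within 200 bp. The median distance to the nearest ARF18 summit was 70807 bp.

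The strongest ARF16 peak without ARF18 was chr3:93909125-93909325, with an ARF16 signal of 805 reads and a rank of 99.6. It was in the ARF34 list with a rank of 99.5 and in the lists of ARF27 and ARF4, but in those of neither ARF29 nor ARF35. At chr3:212628412-212628612 the ARF16 signal was 574.7 reads, and ARF4, ARF27, ARF34 and ARF35 had peaks. At chr2:65120971-65121171 it was 566 reads, with peaks of ARF4, ARF10, ARF27, ARF29 and ARF34. The remaining 2 sites, chr4:220513164-220513364 (554.6 reads) and chr8:130329625-130329825 (548 reads), held a peak of all 12 other lists. ARF18 was thus the only one of the 14 lists without a peak at these 2 sites.

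The 344 ARF18 peaks without an ARF16 partner were mostly weak. Their median signal was 36 reads and their median rank in the ARF18 list 15.4, against 55.4 reads and 51.8 for shared ARF18 peaks. The share of ARF18 peaks with an ARF16 partner was 99.9% (99.3 to 100%) in the strongest ARF18 decile, 97.5% (96.1 to 98.4%) in the sixth and 82.0% (79.2 to 84.6%) in the weakest. Of the 344, 25 had an ARF16 summit within 200 bp, a further 35 had one within 1000 bp, and 166 (48.3%) none within 10 kb. Most were found by a relative, but less often than ARF18 peaks in general. ARF34 had a peak at 73.3% of them (68.3 to 77.7%) and at 98.2% of all ARF18 peaks. For ARF27 these shares were 58.1% and 87.4%. The highest share of a clade B list was 8.14% (ARF25), against 34.5% of all ARF18 peaks. The 344 peaks were in a median of 2 other lists, and 0 were in all 12. Of them, 299 (86.9%, 82.9 to 90.1%) were in no clade B list, against 56.3% of all ARF18 peaks. Weak ARF18 peaks were in fewer of the other 12 lists in any case, with a mean of 3.56 in the weakest and 8.06 in the strongest ARF18 decile. The 344 peaks were not compared with other ARF18 peaks of like signal. In all, 43 ARF18 peaks (0.572% of the list, 0.425 to 0.769%) had no partner in any other list.

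The strongest of them was chr4:22858830-22859030, with an ARF18 signal of 178 reads and a rank of 95.2. Its nearest ARF16 summit was 4645 bp away, yet ARF27, ARF29, ARF34 and ARF35 had peaks there, with ranks of 93.7, 83.3, 80.8 and 96.3 in their own lists. The next was chr1:205754662-205754862 with 122.6 reads, 423 bp from an ARF16 summit, with peaks of ARF14, ARF25, ARF27, ARF29, ARF34 and ARF35. At chr10:124353674-124353874 (119.5 reads) only ARF27 and ARF35 had a peak. At chr10:113557032-113557232 (91.0 reads) and chr7:154162212-154162412 (90.9 reads), 5 other lists had one. No gene is named for these sites, since the gene table used here is of another genome build.

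Position along the chromosomes differed less than strength did. Maize genes are denser near the chromosome ends than in the middle. The terminal zones, 10% of the length at either end, held 29.9% (29 to 30.9%) of shared ARF16 peaks. They held 25.5% (25 to 25.9%) of unshared ones, a difference of 4.49 points (3.40 to 5.58). The ARF18 list as a whole had 29.5% of its peaks there (28.5 to 30.5%), and its 344 peaks without ARF16 had 23.5% (19.4 to 28.3%). Shared peaks had the larger outer share on 10 of 10 chromosomes, by 1.65 (chromosome 6) to 8.04 points (chromosome 7). Sharing itself was even across chromosomes, at 18.8% (chromosome 3) to 20.7% (chromosome 8) of ARF16 peaks. From the end to the middle of the chromosomes it fell gradually, from 22.8% (21.8 to 23.9%) in the outermost bin to 17.2% (15.9 to 18.5%) in the innermost.

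Part of this difference went with strength. Within deciles of ARF16 signal, the outer share was larger in shared peaks in 9 of 10 deciles, but the interval of the difference lay above 0 in only 2. In the strongest decile it was 32.9% for shared and 27.0% for unshared peaks, a difference of 5.93 points (2.64 to 9.23). In the ninth decile the order was the opposite, 26.8% against 30.1%, with a difference of −3.29 points (−6.04 to −0.549). Weighted over the deciles the difference was 2.82 points (1.25 to 4.39), and over 100 strata it was 2.31 points (0.348 to 4.27). Among ARF18 peaks alone, 34.1% (30.8 to 37.6%) of the strongest and 24.1% (21.2 to 27.2%) of the weakest decile lay in the outer zone.

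**Figure D5:**
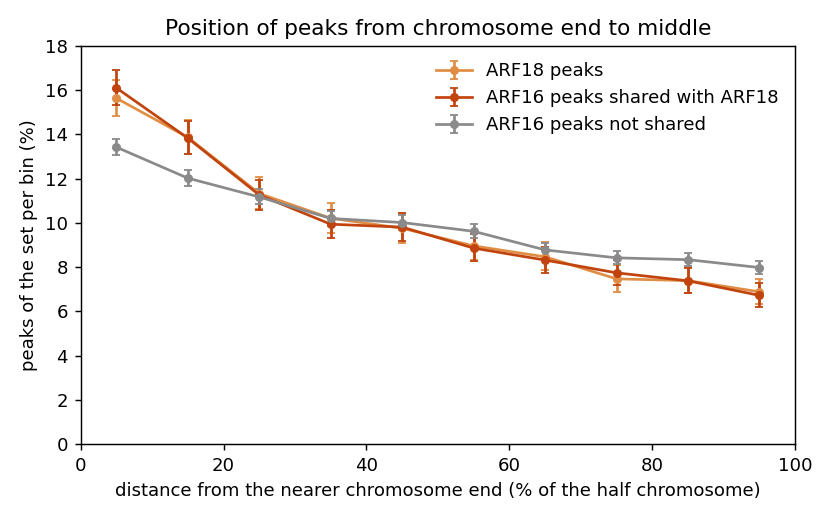
Share of peaks (%) in 10 bins from the chromosome end (0) to the middle (100), for ARF18 peaks, ARF16 peaks shared with ARF18 and unshared ARF16 peaks, with 95% Wilson intervals. The shared sets lie above the unshared peaks in the 2 outer bins (16.1 against 13.4% in the first) and below them in the innermost (6.73 against 7.98%).

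To see how far this pattern was particular to ARF18, the other short clade A lists were set against ARF16 in the same way. ARF35, with 9198 peaks, had 87.0% of its peaks in ARF16 (86.3 to 87.7%), and ARF29, with 14157, had 80.7%, both below the 95.4% of ARF18. Against only the 7520 strongest ARF16 peaks, the shares were 46.6% (45.6 to 47.6%) for ARF35 and 35.7% (34.9 to 36.5%) for ARF29, with 60.7% for ARF18. Against as many of the strongest ARF16 peaks as each list is long, they were 51.9% (50.9 to 52.9%) and 51.7% (50.9 to 52.5%). ARF35 shared 89.0% (86.9 to 90.8%) and ARF29 92.5% (90.7 to 94.0%) of the strongest 1000 ARF16 peaks, against 97.4% for ARF18. In the weakest decile of ARF16 peaks the order was ARF29 (14.2%), ARF35 (6.70%) and ARF18 (4.92%). Taking as many of the strongest ARF16 peaks as each list shared in all, 54.5% (53.5 to 55.5%) had an ARF35 partner, 55.9% (55.1 to 56.8%) an ARF29 partner and 60.6% an ARF18 partner. The outer share exceeded that of unshared peaks by 8.75 points for ARF35 (7.68 to 9.82) and by 4.50 points for ARF29 (3.56 to 5.43).

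ARF18 was also nested in ARF34, the other close relative and the longest list with 74603 peaks. There 98.2% of ARF18 peaks (97.8 to 98.4%) had a partner, and the median ARF34 rank of shared ARF34 peaks was 89.2. ARF18 shared 89.2% (87.1 to 91.0%) of the strongest 1000 ARF34 peaks, fewer than the 97.4% of the strongest 1000 ARF16 peaks. In all, 8495 ARF34 peaks were shared, and of the strongest 8495 ARF34 peaks 51.6% (50.5 to 52.7%) were, against 60.6% of the strongest 8327 in ARF16. The lengths of the ARF34 and ARF16 lists differ, and the ARF34 library was reduced in depth. The strongest 1000 peaks are therefore not a matched part of the 2 lists. The part that list length and depth play in these differences was not tested.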

How the data were processed

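Genomic DNA from B73 ears was captured with GST-ARF proteins, and the lists used here come from 1 library for each of 14 ARFs. After trimming with trimmomatic, the authors aligned reads to B73 RefGen version 3 (Bowtie2 2.2.8), filtered alignments on mapping quality, and ran the peak caller GEM on each library against GST-HALO. A mapping-quality filter can remove reads from near-identical repeats. Per the labels, the ARF34 and ARF27 libraries were reduced in depth (to 15 and 20 M mapped reads). The single depths of the ARF18 and ARF16 libraries are not given in the sources used here. The study describes a blacklist of regions that the deposited lists may already lack. The labels do not say so, and no region was removed here.

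The deposited signal is GEM's unscaled read depth per peak. The deposited −log10 p-values and q-values start at 5 for q and stop at 999, a ceiling that 49 ARF16 and 0 ARF18 peaks reached. Peaks are 201 bp wide, so the summit rule of 100 bp equals 50% reciprocal overlap. Deciles and strata are of ARF16 signal rank, with ties given their mean rank. The last peak end of a chromosome over all lists stood for its length. Scripts used Python 3.11.15 with pandas 2.3.3, scipy 1.17.1 and numpy 2.4.6, were tested on simulated data, and were checked against bedtools 2.31.1 in 6 comparisons, with 0 peaks different. Intervals of differences are normal intervals over peaks, which treat neighbouring peaks as independent. No molecular identifiers were used, so PCR copies count as reads. Named sites are the 5 of highest mean rank or signal in each class, at most 1 per 10 kb. The comparison and its measures were chosen with earlier results of these data known. Motif content at summits was not analysed here, for want of a genome of the same build.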

Additional observations from a re-analysis of the deposited data

How the results depend on the processing

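No alternative changed the sign of Spearman's rho or of the differences in position and in other lists. These differences were varied without strata. The other results are shares and a rank, which cannot change sign. The share of ARF18 peaks with an ARF16 partner was 75.7% with summits at most 20 bp apart, 96.3% under a stricter q limit (−log10 q from 10 up), and 60.7% with equal list sizes (the 7520 strongest ARF16 peaks), so near-complete nesting rests on the length of the ARF16 list and on the 100 bp rule. The median ARF16 rank of shared peaks was 85.3 with overlap by at least 1 bp, 86.9 with 20 bp, 87.7 with the q limit, 86.6 ranked by −log10 q, 87.7 with the strongest of overlapping ARF16 peaks, and 87.0 with the nearest ARF16 peak of each ARF18 peak only. The share of the strongest ARF16 peaks that were shared was 51.2% with 20 bp, 57.9% with the q limit, 62.9% ranked by −log10 q, 62.2% with the strongest of overlapping peaks and 57.8% with nearest peaks only. The difference in other lists was 2.57 with 20 bp, 2.79 with the strongest of overlapping peaks, 2.77 without ARF34 and 2.60 with nearest peaks only. Spearman's rho was 0.64 with 20 bp, 0.55 with the q limit and 0.53 by −log10 q. The causes of these shifts were not tested. The other 8 values, including each of the 5 for chromosome position, stayed within the interval of the main value. The setting with nearest peaks only, the 100 strata and the equal list sizes for ARF35 and ARF29 were chosen after the data were seen. With 1 library per ARF, no statement here covers the variation between libraries, and an ARF16 peak without ARF18 may lie below what the ARF18 library could detect.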
